A study of Mus musculus with 3 samples.

Results

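The genes described here are 56 mouse genes that drive or carry out mitosis: the cyclins and kinases that start it, the kinetochore, checkpoint, motor and spindle proteins that sort the chromosomes, and the condensins, cytokinesis factors and transcription factors that go with them. They were chosen by name, through the current symbol of each probe's accession or the gene name in the files, and the rule itself uses no measured value, although earlier results of these data were known when they were picked. All 56 were on the array and all 56 were tested, among 18055 tested genes. RNA of mouse neural stem cells with the label Dnmt3a-/- (KO) was set against that of cells with the label wildtype (WT) on 3 arrays with 2 dyes each, 1 array for each of 3 biological replicates. Neural stem cells are dividing precursors of neurons and glia, and both groups had been derived in culture from embryonic stem cells and grown with the mitogens EGF and bFGF. Dnmt3a is a DNA methyltransferase that sets new methylation at CpG sites. The labels do not give the strain, the passage, the number of clones behind the KO cells or the deleted part of the gene.

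Entry into mitosis is set by cyclin B bound to Cdk1, which phosphorylates many of the proteins listed here. The kinetochore then ties each chromosome to the spindle, the checkpoint holds the cell until every chromosome is attached, and the anaphase-promoting complex with Cdc20 destroys cyclin B and securin so that the sister chromatids part. Most of these genes are transcribed together late in the cell cycle and are nearly silent in resting cells. In human and mouse cells this timing runs through a promoter element called the cell cycle genes homology region (CHR), bound by the MuvB core with B-Myb and FoxM1 in dividing cells and by the DREAM complex, which also holds MuvB, in resting cells. In the brain these genes mark dividing stem and progenitor cells and are shut off when neurons form.

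The channel label was checked first, on Dnmt3a itself, and it went against the label. The brightest Dnmt3a probe had log2 ratios (KO over WT) of 1.07, 0.97 and 0.92 on arrays 1, 2 and 3, a mean of 0.99 ± 0.08 (SD, n = 3), so it was 1.99-fold higher in the RNA labelled KO. Its other probes were higher too, 1.69-fold and 1.52-fold, so all 3 went against the label. A probe outside the deleted part would not show the loss. Every direction below therefore goes by the KO and WT labels, and each one would turn round if those labels had been swapped. The RNA labelled KO carried Cy3 and the RNA labelled WT carried Cy5 on all 3 arrays, so a bias of a single probe toward 1 dye cannot be told apart from genotype. All 15 neural stem cell markers examined were well above background in both channels, with 8 lower and 4 higher, of which Ptprz1 was saturated. Beside these and the marker counts that follow, 25.5% of all tested genes were lower and 22.5% higher. Of 10 embryonic stem cell genes, Pou5f1, Nanog, Zfp42 and Fgf4 did not pass the background filter in either channel. The other 6 passed it, 4 of them above background for KO and 6 for WT on every array. Dppa5a was higher at 0.17. Dppa4 was lower, but it was above background on 0 arrays for KO and 3 for WT. It therefore passed the filter only through the WT channel. All 10 fibroblast markers were also well above background in both channels. Of these fibroblast markers 6 were lower and 1 higher in the RNA labelled KO, from Col1a2 at a log2 ratio of -1.48 to Postn at 0.95, and their part in the results below was not tested. Of the differentiation markers that passed the background filter, 2 of 7 neuron, 3 of 5 astrocyte and 2 of 7 oligodendrocyte genes were lower. A single neuron gene was higher, and the part of these markers was not tested either. Cldn11, a lower oligodendrocyte gene, was above background on 1 array for KO and 3 for WT, so it too passed only through the WT channel.

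Most of the mitotic genes were a little lower in the RNA labelled KO. Of the 56 genes, 42 fell and 0 rose (limma, adjusted p under 0.05 over all tested genes), against a background of 25.5% of all genes lower and 22.5% higher, 47.9% in either direction. At an unadjusted p under 0.05, 47 were lower (29.1% of all genes were) and 1 was higher (25.5% of all genes). The median log2 ratio of the 56 genes was -0.24, or 1.18-fold lower, while the median of all tested genes was -0.011. The differences were small with loess: 21 members fell by at least 1.2-fold (8.27% of all genes did), 8 were at least 1.3-fold lower (4.5%), and 0 were at least 1.5-fold lower (2.04%). Member means ran from -0.54 for Cenpf to 0.097 for Cdc25b, with quartiles of -0.32 and -0.12, against quartiles of -0.11 and 0.091 over all genes. In bulk RNA, fewer dividing cells and less mitotic RNA per dividing cell cannot be told apart. With the arrays centred on their median and no loess, the median of all genes itself shifted to -0.26, with 9623 genes lower and 769 higher, against 4600 lower and 4055 higher here. The 56 members then had a median of -0.67, which differed from that of all genes by -0.41, against -0.23 with loess. Of the 56, 37 were at least 1.5-fold lower (14.5% of all genes). Median centring leaves in any trend of the ratio with intensity. The dimmest member, Cdc25c, moved from -0.094 to -0.31, and the brightest, Birc5, from -0.49 to -1.10. A larger mitotic difference and such a trend cannot be told apart here.

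**Figure D1:**
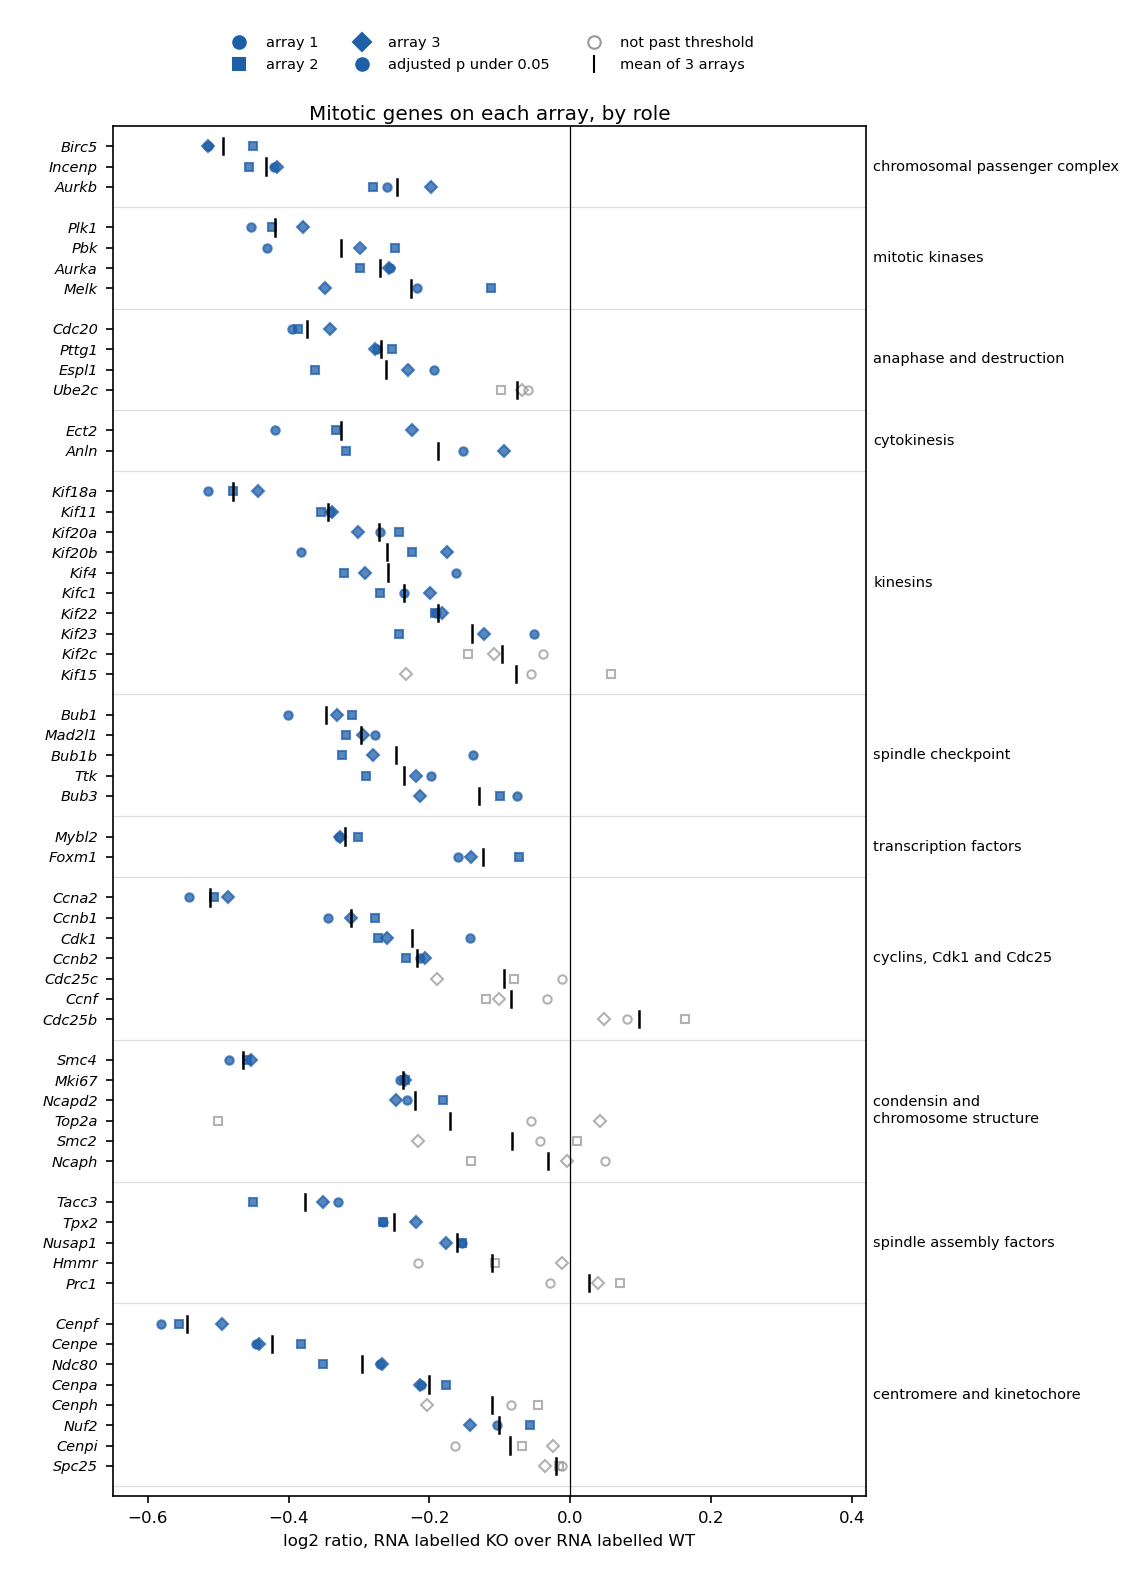
Mean log2 ratio (labelled KO over labelled WT) for each of the 56 mitotic genes, grouped by role, with the value on each of the 3 arrays; colour shows whether the gene passed adjusted p under 0.05. The means of 54 of the 56 genes lie left of 0, and Prc1 and Cdc25b are the exceptions. Of all 18055 tested genes, 9597 had a mean below 0.

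The 3 arrays gave the same picture. The median of the 56 members was -0.22, -0.26 and -0.23 on arrays 1, 2 and 3, and 54, 52 and 53 members were below 0. For all tested genes the medians were -0.018, -0.0043 and -0.0094, and 54.3%, 51.3% and 52.4% were below 0. On all 3 arrays together 50 of the 56 members were below 0, as were 37.0% of all tested genes. The typical spread between arrays was small beside the spread between genes, with a median SD between arrays of 0.045 for a member and an SD between member means of 0.14. On every array all 56 were well above background in each channel and 0 were saturated, so each ratio is a measured one and not a bound. Across the 56 genes the ratios of 2 arrays correlated at r = 0.69 to 0.84, and the mean ratio correlated with mean intensity at r = -0.37. These correlations are descriptions: the genes share arrays and cells and are not independent.

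**Figure D2:**
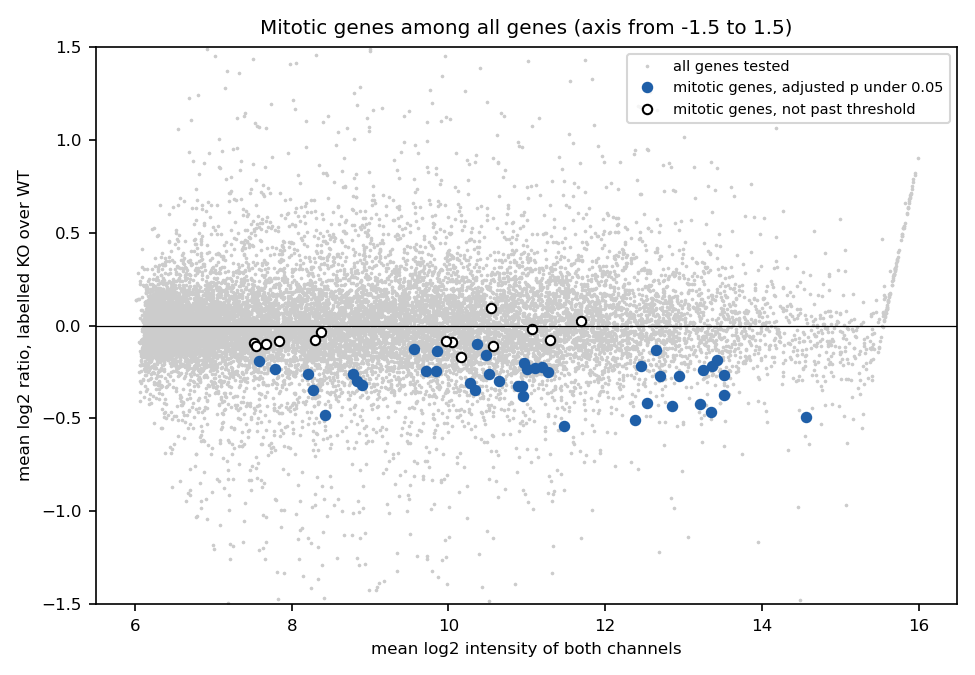
Mean log2 ratio, labelled KO over WT (vertical axis, -1.5 to 1.5), against mean log2 intensity of both channels (horizontal axis) for all tested genes, with the 56 mitotic genes marked by call; 60 genes lie beyond the vertical axis. The mitotic genes sit mostly below the middle of the cloud, and 44 of the 56 are in the lowest 25% of all genes.

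Both transcription factors of the set were lower in the RNA labelled KO. Mybl2 encodes B-Myb, which joins MuvB to switch on the late cell cycle genes. Its log2 ratios were -0.33, -0.30 and -0.33 on arrays 1, 2 and 3, a mean of -0.32 ± 0.015 (SD, n = 3; adjusted p = 0.00013). Foxm1, the forkhead factor recruited next, was at -0.16, -0.073 and -0.14, a mean of -0.12 ± 0.045 (adjusted p = 0.018). All 3 arrays were below 0 for both genes. With the background model fitted on all spots Mybl2 was at -0.21. The call of Foxm1 was lost without replicate 1, at -0.11, and without replicate 3, at -0.12.

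Of the cyclins, Cdk1 and the Cdc25 phosphatases, 4 of 7 fell. The lowest was Ccna2, cyclin A2, which acts from DNA replication into early mitosis. Its probe on chromosome 3 from 36375837 to 36375896 (mouse build mm7, which all probe positions use) had log2 ratios of -0.54, -0.51 and -0.49, a mean of -0.51 ± 0.028 (SD, n = 3; 1.43-fold lower, adjusted p = 1.2e-05). All 3 arrays of Ccna2 were close together. Ccnb1, cyclin B1, was at -0.34, -0.28 and -0.31 and fell by a mean of 0.31 on the log2 scale. Its catalytic partner Cdk1 was at -0.14, -0.27 and -0.26, a mean of -0.22 ± 0.072 (adjusted p = 0.002). Ccnb2, cyclin B2, had the same mean, -0.22, with values between -0.23 and -0.21. The other 3 genes of this group did not pass the threshold. Ccnf, an F-box cyclin that marks proteins for destruction, was at -0.084 (adjusted p = 0.076) and Cdc25c, a phosphatase that activates Cdk1, at -0.094 (adjusted p = 0.096). Without replicate 1 Ccnf passed it at -0.11 and Cdc25c at -0.13. Cdc25b, the phosphatase that gives Cdk1 its first activation at the centrosome, was above 0 on every array, at 0.080, 0.16 and 0.047, with a mean of 0.097 ± 0.059 (adjusted p = 0.057). Its probe lies on chromosome 2 from 130939226 to 130939282, and its other probes did not share this direction, as described further on.

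The promoters of 6 members are shown because they span the range of responses and hold or lack the CHR. They were chosen after their values had been seen: Ccnb2, Cdk1, Plk1 and Cenpf fell, and Prc1 did not pass the threshold. Kif18a, whose window holds neither the CHR nor a CCAAT box, fell too. Each is 250 bases before to 50 after the start of transcription, 5′ to 3′ on the gene's strand, from RefSeq (GRCm38.p6). Capitals mark the CHR letters TTTGAA and the CCAAT box, on either strand.
Ccnb2 (chr9:70421505-70421804, minus strand): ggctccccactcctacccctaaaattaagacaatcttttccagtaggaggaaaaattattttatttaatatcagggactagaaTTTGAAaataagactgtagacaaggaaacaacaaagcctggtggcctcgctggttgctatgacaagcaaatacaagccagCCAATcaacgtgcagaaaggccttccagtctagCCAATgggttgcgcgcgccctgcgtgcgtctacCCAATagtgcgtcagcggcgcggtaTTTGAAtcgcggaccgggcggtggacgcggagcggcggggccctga
Cdk1 (chr10:69352863-69353162, minus strand): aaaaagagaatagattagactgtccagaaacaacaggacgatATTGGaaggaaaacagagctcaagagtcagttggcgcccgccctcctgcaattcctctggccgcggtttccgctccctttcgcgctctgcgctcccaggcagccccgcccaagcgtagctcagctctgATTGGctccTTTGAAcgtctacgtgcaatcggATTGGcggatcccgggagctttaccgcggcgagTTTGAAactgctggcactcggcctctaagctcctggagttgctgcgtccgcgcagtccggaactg
Plk1 (chr7:122159185-122159484, plus strand): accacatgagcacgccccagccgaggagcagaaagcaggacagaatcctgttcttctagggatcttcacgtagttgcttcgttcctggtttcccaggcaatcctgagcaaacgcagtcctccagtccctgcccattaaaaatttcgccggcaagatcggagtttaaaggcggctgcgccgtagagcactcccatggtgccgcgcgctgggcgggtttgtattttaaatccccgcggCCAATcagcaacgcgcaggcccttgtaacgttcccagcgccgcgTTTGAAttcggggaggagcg
Cenpf (chr1:189688037-189688336, minus strand): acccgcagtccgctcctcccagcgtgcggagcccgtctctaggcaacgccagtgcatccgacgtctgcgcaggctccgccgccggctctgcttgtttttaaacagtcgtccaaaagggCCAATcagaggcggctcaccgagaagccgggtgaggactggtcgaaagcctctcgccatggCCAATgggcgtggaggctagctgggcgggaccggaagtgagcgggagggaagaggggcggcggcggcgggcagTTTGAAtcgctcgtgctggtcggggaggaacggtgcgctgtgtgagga
Prc1 (chr7:80294201-80294500, plus strand): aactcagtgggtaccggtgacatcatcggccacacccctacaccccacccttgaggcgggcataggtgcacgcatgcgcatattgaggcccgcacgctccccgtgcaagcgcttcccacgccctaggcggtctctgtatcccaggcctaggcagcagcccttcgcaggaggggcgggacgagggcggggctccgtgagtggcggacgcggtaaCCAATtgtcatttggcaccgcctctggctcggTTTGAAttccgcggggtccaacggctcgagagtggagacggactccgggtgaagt
Kif18a (chr2:109280488-109280787, plus strand): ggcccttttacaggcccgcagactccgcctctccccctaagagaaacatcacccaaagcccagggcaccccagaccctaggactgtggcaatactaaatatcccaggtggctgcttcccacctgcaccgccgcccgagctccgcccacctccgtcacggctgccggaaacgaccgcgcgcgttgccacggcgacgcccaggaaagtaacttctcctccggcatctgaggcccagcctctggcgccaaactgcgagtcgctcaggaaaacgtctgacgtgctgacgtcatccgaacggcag

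Ccnb2 has 2 CHR matches, 1 just after the start of transcription and 1 farther upstream, with 3 CCAAT boxes between them, and Cdk1 has 2 CHR matches and 3 CCAAT boxes. The promoter of Prc1, which was not past the threshold, has 1 of each, as does that of Plk1, which fell. A RefSeq window was found for 47 of the 56 members and for 11688 tested genes. TTTGAA stood on either strand in 31 of the 47 member windows (66.0%), against 12.6% of the windows of all tested genes. CCAAT stood in 32 (68.1%), against 38.7%, and both motifs in 26 (55.3%), against 5.27%. The E2F letters TTTGGCGC stood in 3 member windows, that of Kif18a among them (6.38% against 0.873%), and GGCGGGAA in 1 (2.13% against 3.81%). Each motif was searched on both strands, whether or not it overlapped another. A match is a description of the letters and no sign of binding.

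The members' promoters were also rich in CpG, the dinucleotide that Dnmt3a methylates. The observed over expected CpG ratio had a median of 0.878 in the 47 member windows and 0.733 in those of all tested genes. It was above 0.6 for 45 of 47 members (95.7%) and for 65.6% of tested genes. Methylation was not measured on these arrays. The 31 members that have the CHR letters had a median log2 ratio of -0.22, with 22 lower. The 16 members without them had a median of -0.28, with 12 lower, and this difference was not tested. Among tested genes outside the set, 193 of the 590 with both motifs were lower (32.7%) and 16.4% were higher. Of the 6309 genes with neither motif, 26.6% were lower and 25.1% higher. These shares are descriptions, since genes are not independent replicates.

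All 4 mitotic kinases fell, with a median log2 ratio of -0.30. The lowest was Plk1, polo-like kinase, which acts at centrosomes, kinetochores and the cleavage furrow. It was at -0.45, -0.42 and -0.38 on arrays 1, 2 and 3, a mean of -0.42 ± 0.037 (SD, n = 3; 1.34-fold lower, adjusted p = 3.9e-05). Its probe lies on chromosome 7 from 118093971 to 118094030. Aurka, the Aurora kinase of the spindle poles, was at -0.27, and Pbk, a mitotic kinase also known as TOPK, at -0.33. The highest was Melk, a kinase abundant in neural progenitors, at -0.22, -0.11 and -0.35, a mean of -0.23 ± 0.12 (adjusted p = 0.0055). Melk varied more between arrays than the other kinases, though all 3 of its values were below 0. Its call was lost, at -0.23, with the background model fitted on all spots.

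All 5 spindle checkpoint genes fell as well, with a median of -0.25. Bub1, the kinase that docks the checkpoint on the kinetochore, was lowest, at -0.40, -0.31 and -0.33, a mean of -0.35 ± 0.047 (SD, n = 3; adjusted p = 0.00013). Mad2l1, which encodes Mad2, the protein that holds back Cdc20, was at -0.30, Bub1b, which encodes BubR1, at -0.25, and Ttk, the Mps1 kinase, at -0.24. The highest was Bub3, the partner of both Bub kinases, at -0.076, -0.10 and -0.21, a mean of -0.13 ± 0.074 (adjusted p = 0.025). The call of Bub3 was lost under 6 of 11 alternative settings, among them without replicate 3, at -0.088, and with the mean of all its probes, at -0.046. With the background model fitted on all spots Ttk was at -0.070, and in the authors' deposited table Ttk was at -0.36 and Bub1b, no longer past the threshold, at -0.16.

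Of the genes that start anaphase and destroy mitotic proteins, 3 of 4 fell. Cdc20, the activator of the anaphase-promoting complex, was lowest, at -0.39, -0.39 and -0.34, a mean of -0.37 ± 0.029 (SD, n = 3; adjusted p = 6.3e-05). Pttg1, securin, was at -0.27, and Espl1, the separase that securin restrains, at -0.26. All 3 arrays were below 0 for this protease and for its inhibitor. With the background model fitted on all spots Espl1 was at -0.10. The highest was Ube2c, the ubiquitin-conjugating enzyme of that complex, at -0.061, -0.099 and -0.069, a mean of -0.076 ± 0.020 (adjusted p = 0.084), which did not pass the threshold although all 3 arrays lay below 0. It passed with the scanner's processed signals, at -0.15, and with the background model fitted on all spots, at -0.089.

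Among the mitotic kinesins, the motor proteins of the spindle, 8 of 10 fell, with a median of -0.25. Kif18a, which damps the movements of chromosomes at the metaphase plate, was lowest, at -0.51, -0.48 and -0.44, a mean of -0.48 ± 0.036 (SD, n = 3; 1.39-fold lower, adjusted p = 1.9e-05). Its probe lies on chromosome 2 from 109192046 to 109192105. Kif11, the motor that pushes the spindle poles apart, was next at -0.34. With the background model fitted on all spots Kif18a was at -0.23 and Kif11 at -0.15, both still lower. Kif20a was then the lowest of these 10 kinesins, at -0.28. The other lower kinesins were Kif20a and Kif20b of the central spindle, the chromosome-bound motors Kif4 and Kif22, the minus-end motor Kifc1 and Kif23 of the central spindle, with means from -0.27 to -0.14. The call of Kif23 was lost under 5 settings, among them without replicate 2, at -0.087, and without replicate 3, at -0.15, and that of Kif20b was lost, at -0.17, with the background model fitted on all spots. The accession of the Kifc1 probes now belongs to Kifc5b, a near-identical copy, in RefSeq, so which of these genes was measured is uncertain. Kif2c, which takes microtubules apart at the centromere, was at -0.098 (adjusted p = 0.052) and passed without replicate 1, at -0.13. The highest kinesin was Kif15, a motor that works beside Kif11, at -0.056, 0.058 and -0.23, a mean of -0.077 ± 0.15 (adjusted p = 0.27). The 3 arrays of Kif15 did not share a direction, and it was lower at -0.14 without replicate 2 and stood at 0.0012 without replicate 3.

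Of the 8 centromere and kinetochore members 5 fell, and this group held both the lowest member of the whole set, by its brightest probe, and some of those nearest 0. Cenpf, a large protein of the outer kinetochore, was at -0.58, -0.56 and -0.49, a mean of -0.54 ± 0.045 (SD, n = 3; 1.46-fold lower, adjusted p = 1.2e-05). Its probe lies on chromosome 1 from 189174367 to 189174426. Cenpe, the kinesin that carries chromosomes to the spindle equator, was at -0.42. With the mean of all probes of a gene, Cenpf was at -0.33 and Cenpe at -0.28. Within the Ndc80 complex, which grips the microtubule, the subunits that are members stood at unequal values. Ndc80 was at -0.30, Nuf2 at -0.10 (adjusted p = 0.04) and Spc25 at -0.012, -0.016 and -0.035. Spc24, a subunit of this complex outside the set, was lower at -0.30. The mean of Spc25 was -0.021 ± 0.013 (adjusted p = 0.61), the highest of the group. The call of Nuf2 was lost without any 1 of the replicates, at -0.12 to -0.081, and Ndc80 was at -0.18 with the background model fitted on all spots. Cenpa, the histone variant that marks the centromere, was at -0.20. Cenph and Cenpi, subunits of the inner kinetochore network built on it, did not pass the threshold. Cenph was at -0.11 (adjusted p = 0.051) and Cenpi at -0.086 (adjusted p = 0.097). Cenph did pass without replicate 2, at -0.14, and Cenpi with the background model fitted on all spots, at -0.11.

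All 3 genes of the set that belong to the chromosomal passenger complex fell, with a median of -0.43. This complex corrects wrong attachments and later directs cytokinesis. Birc5, survivin, which places the complex on the centromere, was lowest, at -0.51, -0.45 and -0.51, a mean of -0.49 ± 0.037 (SD, n = 3; 1.41-fold lower, adjusted p = 1.6e-05). Its probe lies on chromosome 11 from 117964690 to 117964749. Incenp, the scaffold, was at -0.42, -0.46 and -0.42. Aurkb, the kinase subunit, was highest of the 3 at -0.26, -0.28 and -0.20, a mean of -0.25 ± 0.043 (adjusted p = 0.00069). With the scanner's processed signals Aurkb was at -0.15. The array values of Aurkb did not overlap those of Birc5 or Incenp. Cdca8, borealin, a subunit of the complex outside the set, was lower too, at -0.24.

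Of the spindle assembly factors, 3 of 5 fell. Tacc3, which strengthens the fibres that end on kinetochores, was lowest at -0.33, -0.45 and -0.35, a mean of -0.38 ± 0.065 (SD, n = 3; adjusted p = 0.00012). Tpx2, the activator of Aurora A, was at -0.25 and Nusap1, which bundles microtubules near chromosomes, at -0.16, which was -0.051 and not past the threshold with the mean of its probes. Hmmr, a spindle pole protein, was at -0.11 (adjusted p = 0.068) and passed without replicate 3, at -0.16. Prc1, which bundles antiparallel microtubules in the central spindle, was highest, at -0.029, 0.070 and 0.039, a mean of 0.027 ± 0.051 (adjusted p = 0.56). Prc1 and Cdc25b were the only members with a mean above 0, and under other settings both had a mean below it. Prc1 was measured by a probe on chromosome 7 from 76185003 to 76185055.

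Both cytokinesis genes fell. Ect2, the exchange factor that activates RhoA at the cell equator, was at -0.42, -0.33 and -0.22, a mean of -0.33 ± 0.098 (SD, n = 3; adjusted p = 0.00055). Anln, anillin, the scaffold of the contractile ring, was at -0.15, -0.32 and -0.094, a mean of -0.19 ± 0.12 (adjusted p = 0.012). Array 3 gave the value nearest 0 for both. The call of Anln was lost under 4 of 11 settings, among them without replicate 2, at -0.12, and with the background model fitted on all spots, at -0.044. With the mean of its probes, a dim one at -0.074 among them, Ect2 was at -0.20.

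Among condensin subunits and other proteins of chromosome structure 3 of 6 fell. The lowest was Smc4, a core subunit of condensin, at -0.48, -0.46 and -0.45, a mean of -0.47 ± 0.017 (SD, n = 3; 1.38-fold lower, adjusted p = 1.8e-05). Its probe lies on chromosome 3 from 69135537 to 69135596. Its partner Smc2 was at -0.043, 0.0094 and -0.22, a mean of -0.084 ± 0.12 (adjusted p = 0.18). Ncapd2, another subunit, was at -0.22, and at -0.14 with the scanner's processed signals. The highest was Ncaph, the subunit that closes the condensin ring, at 0.049, -0.14 and -0.0048, a mean of -0.032 ± 0.098 (adjusted p = 0.57), and at 0.022 without replicate 2. Mki67, the proliferation marker Ki-67, which coats mitotic chromosomes, was at -0.24, -0.23 and -0.23, with an SD of 0.0045. Top2a, the topoisomerase that untangles sister chromatids, was at -0.056, -0.50 and 0.043, a mean of -0.17 ± 0.29 (adjusted p = 0.16). Array 2 alone was far below 0 for Top2a.

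Several members were measured by more than 1 probe. The array held 97 probes for the 56 genes, and 87 were tested, of which 62 were lower, 0 were higher and 83 had a mean below 0. By gene, with the brightest probe, 25.5% of all 18055 tested genes were lower, 22.5% higher, and 9597 had a mean below 0. Shares over all 26670 tested probes were not counted. Another 10 member probes did not pass the background filter and had log2 ratios from -0.20 to 0.054. Of the 23 members with several tested probes, 20 had every probe below 0, and in 11 every probe was lower at adjusted p under 0.05 over all probes. The 3 probes of Ccnb1 all fell, with means of -0.31, -0.35 and -0.42. Probes of Bub3, Cdc25b and Nusap1 lay on both sides of 0. For Cdc25b the brightest probe stood at 0.097, while a probe only 138 bases away was lower at -0.22 and a dimmer probe farther off was at -0.065. A single direction for Cdc25b was therefore not measured.

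**Figure D3:**
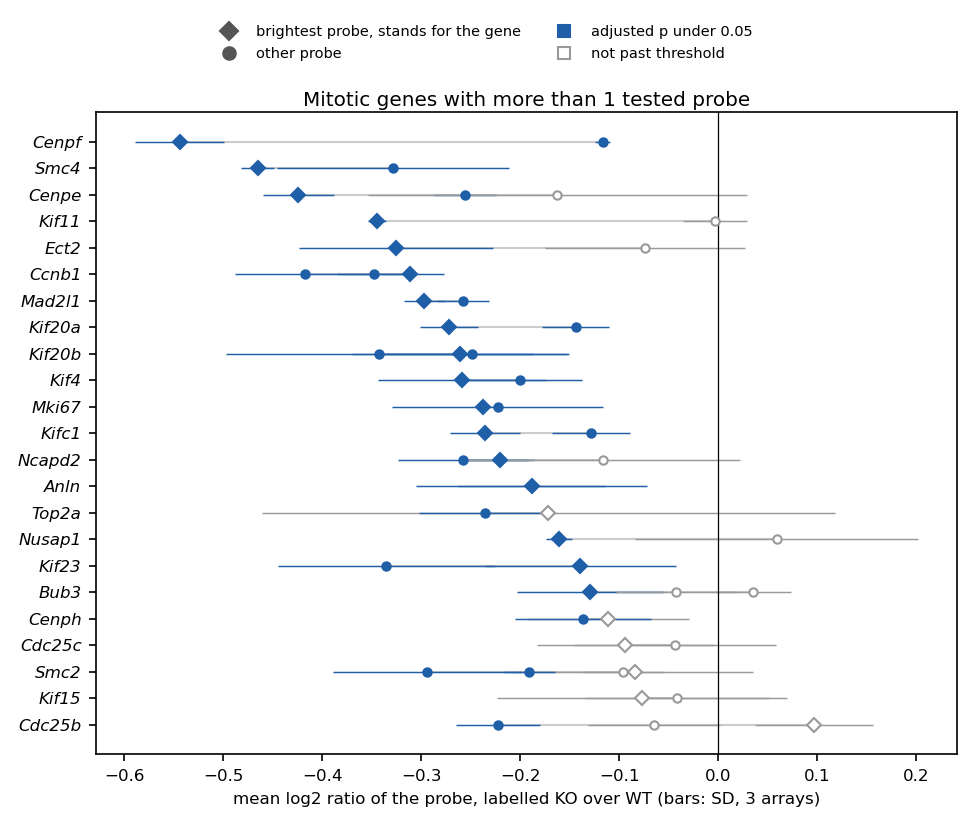
Mean log2 ratio (labelled KO over labelled WT) of every tested probe of the 23 mitotic genes with more than 1 tested probe; bars give the SD over 3 arrays, diamonds the brightest probe, which stands for the gene, and filled symbols an adjusted p under 0.05. Probes of Cenpf and Kif11 lie far apart, and Cdc25b has probes on both sides of 0.

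The size of the difference depended on the probe as well. The brightest Cenpf probe was at -0.54 and its other probe at -0.12, and the 2 probes of Kif11 were at -0.34 and -0.0029. The brightest Smc2 probe, at -0.084, was the least lowered of 4, and its other probes were at -0.29, -0.19 and -0.096, of which the first pair was lower. Top2a and Cenph, not past the threshold by their brightest probe, each had another probe that was lower, at -0.24 and -0.14. The 2 Kif23 probes, adjacent by their coordinates, had means of -0.14 and -0.33, and their sequences are shown because both were lower but by unequal amounts. The files give each a span in mm7 that is longer than the probe itself.
Kif23, probe at -0.14 (chr9:61946494-61947614, minus strand): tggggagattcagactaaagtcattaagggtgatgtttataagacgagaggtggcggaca
Kif23, probe at -0.33 (chr9:61946253-61946493, minus strand): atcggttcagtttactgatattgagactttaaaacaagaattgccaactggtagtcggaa

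Related genes outside the set were examined in lists by function, of which 123 genes were tested besides the transport kinesins. Of these, 75 were lower and 10 higher, with a median log2 ratio of -0.16. Among all tested genes, 25.5% were lower and 22.5% higher. Of 35 further centromere and kinetochore genes 26 were lower and 3 higher, with a median of -0.22. The lowest were Sgo1 and Sgo2a, the shugoshins that guard sister chromatid cohesion, at -0.50 and -0.46, and the highest were Cenpb, which binds centromere repeats, at 0.19 and Zwint, a kinetochore protein, at 0.20. Of 24 centrosome and spindle pole genes 17 were lower and 2 higher, from Haus4, a subunit of the augmin complex, at -0.58 and Cep55, a midbody protein, at -0.37 to Ckap2, a spindle protein, at 0.16 and Numa1, which anchors microtubules at the poles, at 0.27. Among 15 further cohesin and condensin genes 10 were lower and 0 higher, with Pds5b at -0.40 and Ncapg2 at -0.35 the lowest. The highest of these were the cohesin loader Nipbl at 0.026 and the acetyltransferase Esco1 at 0.028, neither past the threshold.

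The list for the anaphase-promoting complex held its subunits together with Fzr1, an activator, Fbxo5, the inhibitor Emi1, and Ube2s, a ubiquitin-conjugating enzyme. Of its 15 genes, 5 were lower, Fbxo5 at -0.24 among them, and 2 higher, with a median of -0.082. They ran from Anapc1 at -0.30 and Anapc5 at -0.25 to Anapc13 at 0.14 and Anapc2 at 0.15. The shares to set beside this list and the next ones are 25.5% of all genes lower and 22.5% higher. Of 11 MuvB, DREAM and B-Myb partner genes 6 were lower and 0 higher, with a median of -0.14. The lowest were E2f5, a repressor E2F, at -0.40 and Rbl1, the pocket protein p107, at -0.31, and the highest were Lin52 at 0.025 and Tfdp1 at 0.037, neither past the threshold. In a list of 9 genes drawn up for the gating of Cdk1, 5 were lower and 1 higher. It also held Gmnn, geminin, which restrains the licensing of DNA replication and not Cdk1, and which was lower at -0.32. The lowest were Cks2, a small Cdk-binding protein, at -0.42 and Pkmyt1, an inhibitory kinase of Cdk1, at -0.35, and the highest were Arpp19 at 0.015, not past the threshold, and Ensa, an inhibitor of the phosphatase that opposes Cdk1, at 0.37. Of 14 further cytokinesis and midbody genes 6 were lower and 2 higher, with a median of -0.070, from Kif14 at -0.31 and Rock1 at -0.18 to Septin7 at 0.14 and Pdcd6ip at 0.25.

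Kinesins that carry cargo rather than build spindles are listed for comparison. Of 17 tested transport kinesins 6 were lower and 3 higher (25.5% and 22.5% of all genes). Their median was -0.015, which is close to that of all genes, -0.011. The range was wider than that of the mitotic set: Kif21b was at -0.70 and Kif5a, a neuronal motor, at -0.66, while Kif1a was at 0.19 and Kif1c at 0.30. DNA replication genes, which act earlier in the cycle, had a median between that of the mitotic genes and that of all genes. Of 41, 27 were lower and 2 higher, with a median of -0.14, from Pcna, the sliding clamp, at -0.46 and Pole2 at -0.35 to Rfc2 at 0.14 and Rpa1 at 0.31. The difference between lists was not tested.

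**Figure D4:**
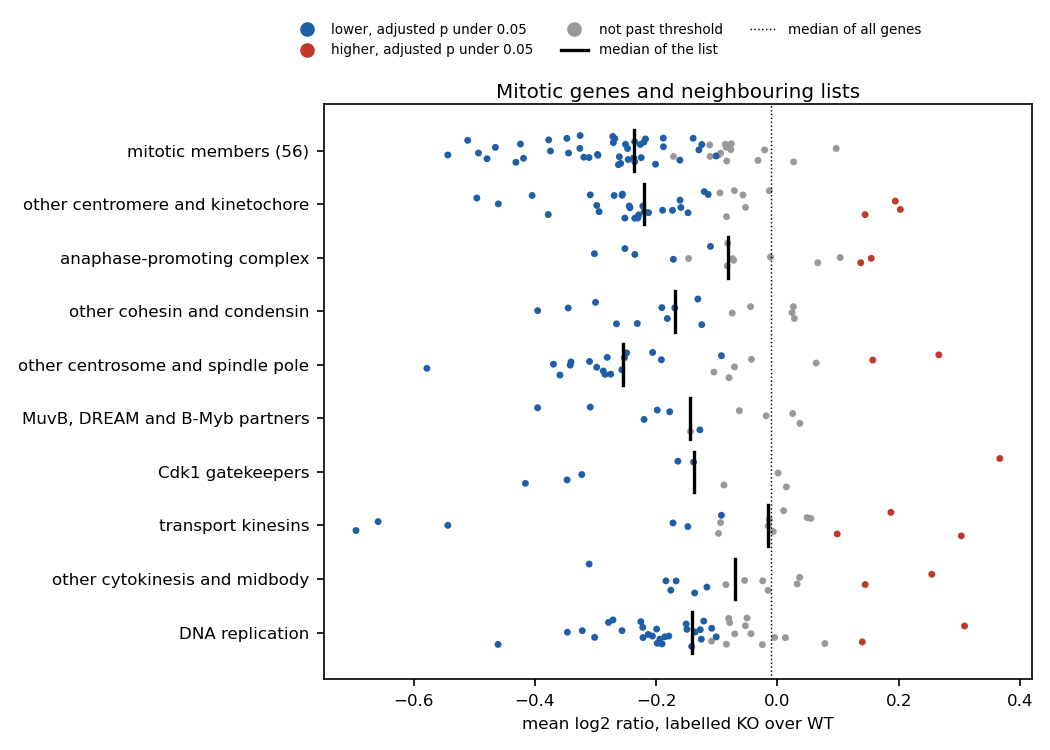
Mean log2 ratio, labelled KO over WT, for the 56 mitotic genes and for genes of neighbouring lists; each point is a gene, colour its call, the bar the median of the list and the dotted line the median of all tested genes. The medians of the mitotic genes, further centromere genes and centrosome genes lie at -0.24, -0.22 and -0.25, and that of the transport kinesins at -0.015.

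The mitotic genes were lower under each of 11 other ways of processing the same arrays. Between 38 and 56 of the 56 were past the threshold, and 0 were higher. Among all genes, 17.4% to 53.3% were then lower and 4.26% to 23.1% higher. The count of 56 and the share of 53.3% both came from median centring without loess. Of the 42 lower genes, 33 kept their call under all 11, and Anln, Bub1b, Bub3, Foxm1, Kif20b, Kif23, Melk, Nuf2 and Nusap1 lost it under at least 1.

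**Figure D5:**
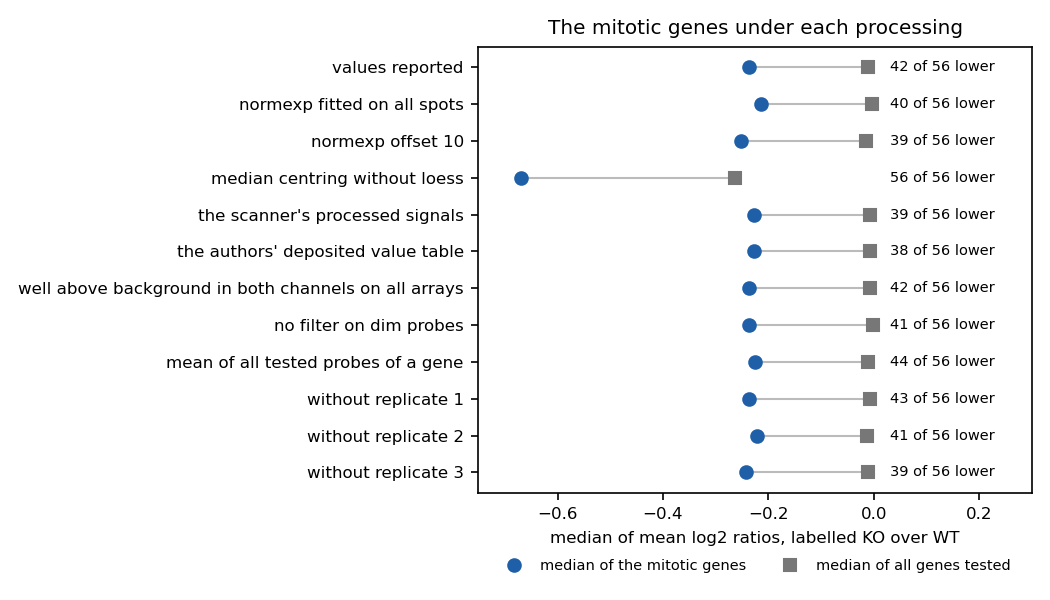
Median log2 ratio, labelled KO over WT, of the 56 mitotic genes and of all tested genes under each way of processing, with the number of mitotic genes lower at adjusted p under 0.05. The median of the mitotic genes lies left of that of all genes under every setting shown, and median centring without loess moves both.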

How the data were processed

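The members and gene lists were chosen with earlier results of these data known. Agilent Feature Extraction 9.5.3.1 made the deposited files, per the file headers. Their spot and background signals are raw intensity values and their processed signals are dye-normalized intensity values, per the file headers. The deposited log10 ratio (Cy5 over Cy3) served as a check of direction. The authors' deposited value table tracks the log2 ratio KO over WT, and its scaling is not given in the sources consulted.

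Intensities were corrected with limma's normexp (offset 50, which draws dim ratios toward 0), fitted on spots without outlier marks as in an earlier analysis of these data, and normalized by loess within arrays with control spots at weight 0 (limma 3.58.1, R 4.3.3). Marked and control spots were left out, and the deposited marks for outliers, background and saturation were used as given. The share of probes well above background was 64.1% to 65.6% for KO and 66.1% to 69.4% for WT. Probes well above background in either channel on all 3 arrays were tested (26670), and the brightest stood for a gene. Of 41174 probes, 22951 were named by accession and 9768 by symbol. The mean log2 ratio was tested against 0 with lmFit and eBayes (two-sided) and Benjamini-Hochberg adjustment over 18055 genes. The script was tested on simulated data. All arrays share 1 slide and 1 scan day. P-values measure only the spread between these 3 arrays, whose number limits the precision. In each role group the lowest and highest member are given by array, the others by mean, and in other lists the lowest and highest pair are named.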

Additional observations from a re-analysis of the deposited data

How the results depend on the processing

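With the background (normexp) model fitted on all spots, the median of the mitotic genes was -0.21 and 2317 genes were higher. With median centring and no loess, the median of the mitotic genes was -0.67, 9623 genes were lower and 769 higher, Cdc25b was at -0.35 and Prc1 at -0.46. Averaging all tested probes of a gene put Cdc25b at -0.063. Prc1 was at -0.055 with the scanner's processed signals and at -0.062 in the authors' deposited value table. Leaving out each replicate in turn, Ncaph ranged from -0.073 to 0.022 (above 0 without replicate 2) and Kif15 from -0.14 to 0.0012 (above 0 without replicate 3). The cause was not tested. The same alternatives gave 39 to 43 mitotic genes lower, 0 higher, and medians of -0.24 to -0.22. They put 19.2% to 22.7% of all genes lower and 17.2% to 21.4% higher. The fewest mitotic genes, 38 lower, came from the authors' table, which put 20.0% of all genes lower.

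Among the 42 lower genes, the log2 ratio moved by over 1.5 times for 8 with the normexp fit on all spots, each nearer 0, for 42 with median centring, 7 with the mean of probes, 5 in the authors' table, 4 with the processed signals and 2 without replicate 2.

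A fit with slide as a block was not run, since all arrays lie on 1 slide. No paired analysis was possible because each ratio already pairs the channels of 1 array and there is only 1 group of ratios. Exchanged dyes were not part of the design, so neither the direction of single probes nor differences as small as those near the threshold can be checked against dye bias.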
